A study of Mus musculus with 12 samples.

Results

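Nonsense-mediated decay and decapping genes were followed in total RNA recovered from a pulldown of Gas5, a snoRNA-hosting long noncoding RNA. The 9 genes were taken by name, Upf1, Upf2, Upf3a, Upf3b, Smg1, Smg5, Smg6, Dcp2 and Xrn1, from the 49489 gene rows of the total RNA table, because Gas5 is itself a known substrate of nonsense-mediated decay. All 9 had a row and passed the filter on low counts, as did 20049 genes in all. The material was hippocampal neurons from mice of postnatal day 0, grown for 16 days in vitro, with no strain, genotype or treatment given. The 6 total RNA libraries were labelled antisense (n = 3) and sense (n = 3), and 6 small RNA libraries were not used here. The labels do not say whether antisense and sense name a probe or a bait, which of them was the capture and which the control, or whether replicates are separate cultures. The p-values therefore measure library-to-library spread alone, possibly technical.

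Nonsense-mediated decay removes RNAs on which a ribosome stops at a premature stop codon. The helicase UPF1 is loaded at the stalled ribosome, is joined through UPF2 and UPF3 proteins to the exon junction complex left downstream by splicing, and is phosphorylated by the kinase SMG1. Phosphorylated UPF1 draws in SMG6, which cuts the RNA, and SMG5, which leads to deadenylation and decapping; DCP2 then removes the cap and XRN1 digests the RNA from its exposed end. Spliced Gas5 carries a short reading frame, and its translation exposes it to this route, while the snoRNAs in its introns are spared.

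The antisense libraries held 5775052 to 6293093 counts and the sense libraries 6478779 to 10424167. Gas5 took 9.71% to 14.2% of the counts in antisense libraries and 32.7% to 57.1% in sense libraries. With such unequal shares the scale matters, and all levels here are CPM, counts scaled to library size, after TMM, a scaling that takes most genes as not differing. TMM put the median log2 fold change of all tested genes, antisense minus sense, at -0.01, and library totals alone put it at 0.70. Summed over the markers listed for each cell type, neuronal RNAs stood at 847 to 1097 CPM in antisense and 1085 to 1379 CPM in sense libraries, astrocyte RNAs at 938 to 1167 and 1057 to 1380 CPM, oligodendrocyte lineage RNAs at 318 to 341 and 340 to 442 CPM, and vascular and fibroblast RNAs at 64.3 to 67.8 and 70.1 to 84.6 CPM. Microglial RNAs stood at 26.1 to 28.1 CPM in antisense and 16.3 to 20.3 CPM in sense libraries. Of these lists, 1 of 9 neuronal markers, 1 of 6 astrocyte markers and 1 of 5 microglial markers tested were lower in antisense and 2 microglial markers were higher. The shares among all tested genes were 18.2% higher and 4.35% lower, and among protein-coding genes 9.66% and 4.78%. No marker was at 0 in every library. The libraries hold RNA recovered in a pulldown, so higher and lower mean more or less RNA recovered, which need not follow expression in the cells. In these sums, the number of cells of a type, the RNA per cell and its recovery cannot be told apart. The part of cell makeup in the values below was not tested.

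Of the 9 genes, on the TMM scale, Upf2 was higher in antisense, Dcp2 was lower, and 7 did not pass (edgeR quasi-likelihood test, Benjamini-Hochberg adjustment over all genes tested). Over all tested genes 18.2% were higher and 4.35% lower, and over the 15030 protein-coding genes 9.66% were higher and 4.78% lower. With 1 of 9 in each direction, the count does not set these genes apart from that background. The 9 log2 fold changes ran from -0.30 to 0.30 with a median of -0.07. Antisense and sense libraries were fully separate for 3 of the 9 genes, with antisense above for Upf2 and below for Smg1 and Dcp2. Antisense libraries all lay above for 23.4% and all below for 13.2% of all genes, and for 14.5% and 15.8% of protein-coding genes. Single estimated counts of the 9 genes were 87.8 to 2697, and the coefficient of variation within a group was 4.87% to 16.2% in antisense and 2.32% to 20.04% in sense libraries. CPM is not corrected for transcript length, so levels are compared between groups and not between genes.

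**Figure D1:**
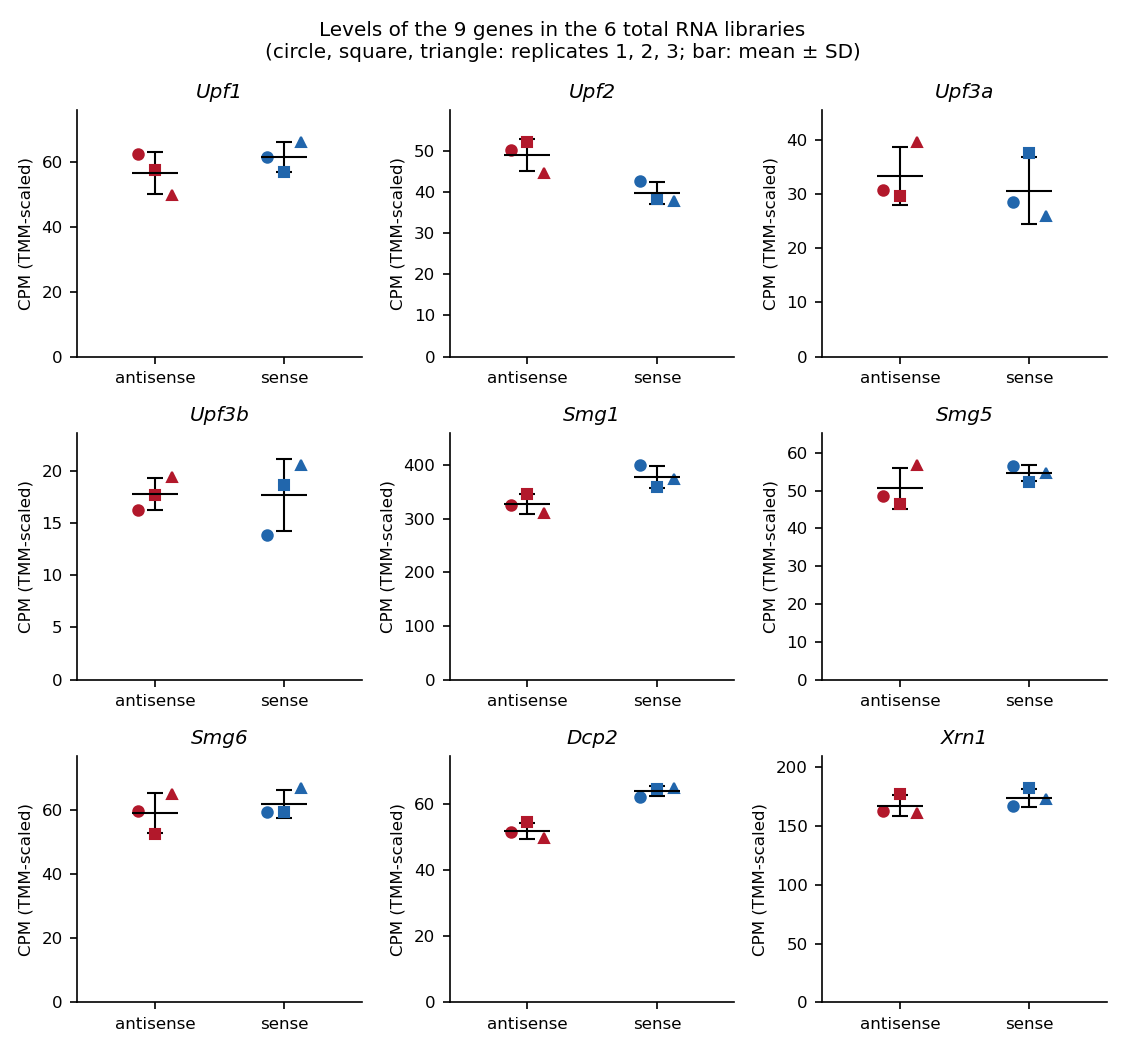
CPM (TMM-scaled, axis from 0) of each of the 9 genes in the 3 antisense libraries (red, left) and the 3 sense libraries (blue, right), with the mean and SD of each group. Upf2 lies higher in every antisense library, Smg1 and Dcp2 lie lower on this scale, and the groups of the other 6 genes overlap; on library totals Smg1 and Dcp2 have positive fold changes.

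Among the UPF genes, only the bridging factor gene Upf2 passed. Upf2 (chromosome 2 from 5951447 to 6056703, GRCm38.p6) stood at 50.2, 52.0 and 44.6 CPM in antisense libraries, against 42.7, 38.3 and 37.9 CPM in sense libraries. Every antisense library was above every sense library, with antisense replicate 3 and sense replicate 1 the closest. It averaged 49.0 ± 3.86 CPM over antisense libraries and 39.6 ± 2.67 CPM over sense libraries (SD, n = 3 each), a log2 fold change of 0.30 (95% interval 0.08 to 0.53; edgeR adjusted p = 0.0488). The call lay at the threshold: it was lost without antisense replicate 1 (edgeR adjusted p = 0.154), antisense replicate 2 (0.151), sense replicate 1 (0.0739), sense replicate 2 (0.127) or sense replicate 3 (0.178). DESeq2 gave an adjusted p = 0.116, and the authors' deposited table gives 0.168 for a sense minus antisense log2 fold change of -0.30.

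The helicase gene Upf1 and the paralogues Upf3a and Upf3b overlapped between groups. Upf1, which encodes the ATP-dependent helicase at the centre of the pathway, was at 62.6, 57.5 and 49.97 CPM in antisense and 61.5, 57.0 and 66.1 CPM in sense libraries. Antisense replicate 3 was the lowest of the 6 and sense replicate 3 the highest, and the log2 fold change was -0.12 (95% interval -0.34 to 0.11; edgeR adjusted p = 0.486). Upf3a was at 30.8, 29.7 and 39.5 CPM in antisense and 28.5, 37.6 and 25.9 CPM in sense libraries. One library of each group stood apart from its partners, antisense replicate 3 and sense replicate 2, and the log2 fold change of 0.12 had a 95% interval of -0.20 to 0.44. Upf3b, the X-linked gene for the UPF3 protein that contacts the exon junction complex, was at 16.3, 17.7 and 19.4 CPM in antisense and 13.9, 18.7 and 20.6 CPM in sense libraries. Sense libraries of Upf3b enclosed all antisense libraries, and its log2 fold change was 0.01 (95% interval -0.33 to 0.35).

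The kinase and effector genes did not pass either. Smg1, which encodes the kinase of UPF1, was at 326, 346 and 310 CPM in antisense and 400, 358 and 375 CPM in sense libraries. All antisense libraries were lower on the TMM scale, with a log2 fold change of -0.21 (95% interval -0.40 to -0.02), but the unadjusted p = 0.0362 became an edgeR adjusted p = 0.121. Smg5, which encodes an adaptor of phosphorylated UPF1, was at 48.6, 46.4 and 56.7 CPM in antisense and 56.6, 52.4 and 54.6 CPM in sense libraries. Antisense replicate 3 of Smg5 was the highest of the 6, and the log2 fold change was -0.11 (95% interval -0.33 to 0.11). Smg6, the endonuclease gene, was at 59.6, 52.7 and 65.0 CPM in antisense and 59.3, 59.5 and 66.8 CPM in sense libraries, with a log2 fold change of -0.07 (95% interval -0.29 to 0.16). The 2 effector genes thus spread as widely within a group as between groups.

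Of the genes for the final steps, Dcp2 was lower and Xrn1 did not pass. Dcp2 (chromosome 18 from 44380500 to 44424969, GRCm38.p6), which encodes the decapping enzyme, was at 51.5, 54.7 and 49.7 CPM in antisense and 62.3, 64.8 and 64.9 CPM in sense libraries. Every antisense library was lower on the TMM scale, and the sense libraries varied less than those of the other 8 genes (coefficient of variation 2.32%). The log2 fold change was -0.30 on the TMM scale (95% interval -0.50 to -0.10; edgeR adjusted p = 0.0270) and 0.40 on library totals, where the median of all genes was 0.70. The call was lost without antisense replicate 1 (edgeR adjusted p = 0.0895), antisense replicate 3 (0.0736), sense replicate 2 (0.0671) or sense replicate 3 (0.0854). DESeq2 gave an adjusted p = 0.0699, and the authors' deposited table gives 0.0755 for a sense minus antisense log2 fold change of 0.31. Xrn1, the cytoplasmic exonuclease gene, was at 163, 178 and 162 CPM in antisense and 167, 182 and 174 CPM in sense libraries. Those groups overlapped, and the log2 fold change of -0.06 had a 95% interval of -0.25 to 0.13, the narrowest of the 9.

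**Figure D2:**
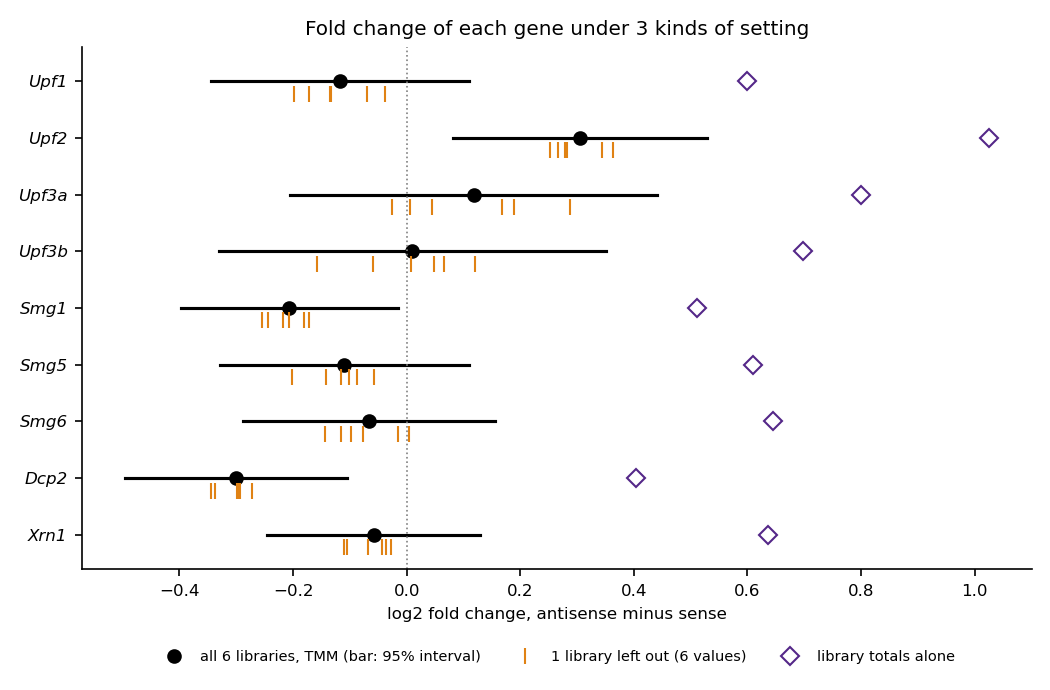
Log2 fold change (antisense minus sense) of the 9 genes with all 6 libraries on the TMM scale (black, with 95% interval), with 1 library left out at a time (orange ticks) and on library totals alone (open diamonds). Black points lie between -0.30 and 0.30, and the diamonds lie between 0.40 and 1.02, around the 0.70 that library totals gave as the median of all genes.

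Library totals moved the whole set. On that scale 7 of the 9 genes were higher in antisense, and so were 12804 of the 20049 genes tested. The count therefore does not set the 9 genes apart. All 9 log2 fold changes were positive, and their median was 0.64, against 0.70 for all genes. Taken relative to that median, Upf2 was at 0.32 and Dcp2 at -0.30, close to their values of 0.32 and -0.29 relative to the TMM median.

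Ratios of counts within a library do not depend on the scale, and 5 pairs of these genes were compared. With 3 against 3 libraries the exact permutation test (two-sided) cannot go below p = 0.1. The log2 ratio of Upf1 over Upf2 was 0.32, 0.15 and 0.16 in antisense and 0.53, 0.57 and 0.80 in sense libraries. The ratio was lower in all 3 antisense libraries, by 0.43 (exact permutation p = 0.1, adjusted p = 0.25 over the 5 pairs). The log2 ratio of Dcp2 over Xrn1, the enzymes of consecutive steps, was -1.66, -1.70 and -1.70 in antisense and -1.42, -1.49 and -1.42 in sense libraries. That ratio was also lower in all 3 antisense libraries, with a difference of -0.24, an SD of 0.02 in antisense and 0.04 in sense (exact permutation p = 0.1, adjusted p = 0.25; n = 3 each).

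For the other 3 pairs the groups overlapped. The log2 ratio of Upf3a over Upf3b averaged 0.90 ± 0.14 in antisense and 0.79 ± 0.40 in sense (SD, n = 3 each; exact permutation p = 0.9), and the difference changed sign without sense replicate 3 (-0.12). Smg5 over Smg6 averaged -0.22 ± 0.06 in antisense and -0.18 ± 0.11 in sense (exact permutation p = 0.7), and its difference was 0.02 without sense replicate 1. Smg1 over Upf1 averaged 2.53 ± 0.13 in antisense and 2.62 ± 0.10 in sense (exact permutation p = 0.5). Upf2 over Dcp2, a pair picked because its genes were the ones called and therefore given with no test, was -0.04, -0.07 and -0.15 in antisense and -0.55, -0.76 and -0.78 in sense libraries. The counts of Upf2 and Dcp2 were thus nearly equal in every antisense library, while Upf2 had fewer counts than Dcp2 in every sense library.

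**Figure D3:**
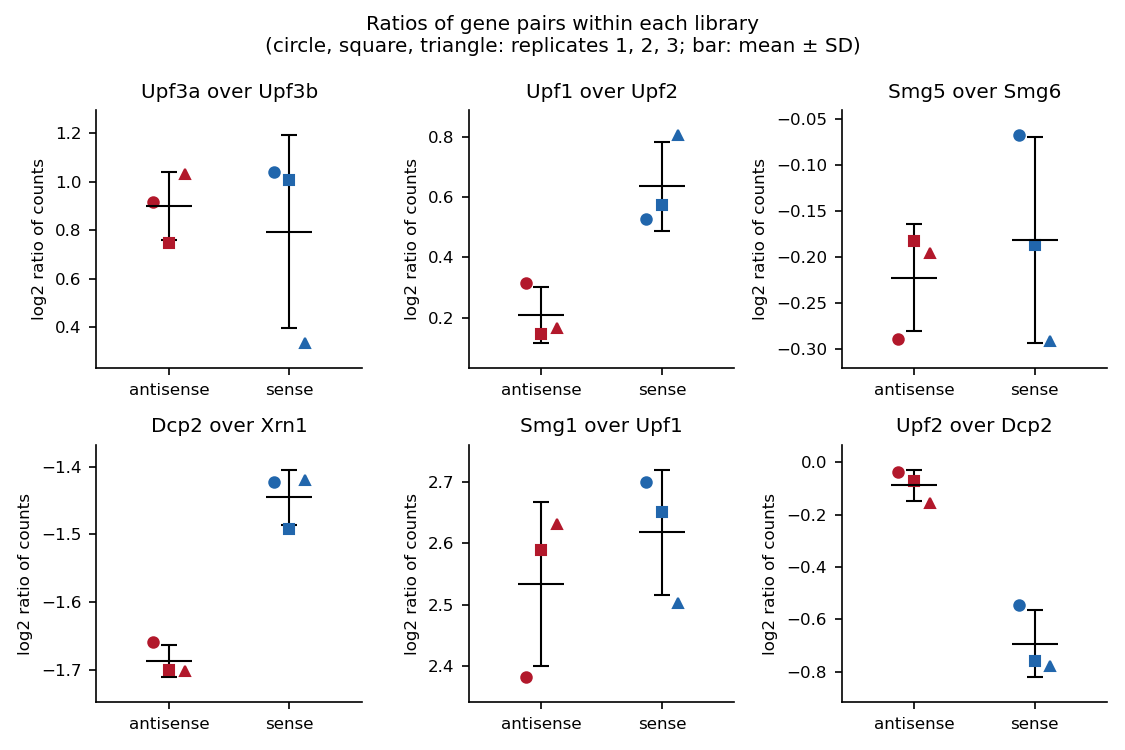
Log2 ratio of the counts of gene pairs in each of the 3 antisense (red, left) and 3 sense libraries (blue, right), with mean and SD; axes do not start at 0. Upf1 over Upf2 and Dcp2 over Xrn1 are lower in every antisense library, Upf2 over Dcp2 is higher, and the other pairs overlap.

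Some of the decay genes share sequence with neighbouring genes. In the RefSeq annotation (GRCm38.p6) Upf2, Upf3b, Smg5 and Dcp2 overlap no other gene, and the other 5 overlap 13 genes, of which 10 have a row in the table and 5 were tested. Of those 5, the long noncoding RNA Gm16794 and the pseudogene Rps12-ps19 were higher in antisense and none was lower. Over all tested genes 18.2% were higher and 4.35% lower. Among protein-coding genes 9.66% were higher, so tested genes of other kinds were higher more often than 18.2%. Both called neighbours are of those other kinds, and their calls therefore do not set the neighbours apart. Rps12-ps19 also passed the filter on low counts through its antisense libraries alone. The uncalled neighbour Hic1 likewise needed its antisense libraries to pass that filter. Counting by strand is not stated, so reads in a shared stretch may have gone to either gene.

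Xrn1 (plus strand, chromosome 9 from 95954750 to 96057806) shares 8498 bases with Gm16794 (minus strand, 95942045 to 95963247), and one annotated start of Gm16794 lies 70 bases upstream of the start listed for Xrn1. The 250 bases before the Xrn1 start (RefSeq, GRCm38.p6, chr9:95954510-95954759, plus strand) are shown because they hold that start of Gm16794 and run up to the start of Xrn1. Capitals mark the stretch that begins at that start of Gm16794, which is transcribed leftwards. It ends just before the listed start of Xrn1 at base 95954760, which is transcribed rightwards. The Xrn1 span given above begins at 95954750, so the last bases shown lie inside that span.
Xrn1 upstream region: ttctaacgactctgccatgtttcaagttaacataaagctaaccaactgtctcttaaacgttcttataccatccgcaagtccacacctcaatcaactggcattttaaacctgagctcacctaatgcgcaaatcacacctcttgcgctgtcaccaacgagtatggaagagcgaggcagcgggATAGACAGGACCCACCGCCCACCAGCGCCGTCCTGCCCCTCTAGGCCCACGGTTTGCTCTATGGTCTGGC

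Gm16794, most of whose annotated span lies outside Xrn1, was at 10.8, 10.1 and 10.3 CPM in antisense and 4.74, 2.03 and 2.57 CPM in sense libraries. The counts are per gene and do not show where in that span its reads lay. All antisense libraries were higher, by 1.73 on the log2 scale (SE 0.272; edgeR adjusted p = 0.000158), a call that held whichever library was left out. The log2 ratio of Gm16794 over Xrn1 averaged -4.00 ± 0.11 in antisense and -5.90 ± 0.69 in sense (SD, n = 3 each), a pair chosen after the values were seen.

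Smg6 (plus strand, chromosome 11 from 74925854 to 75164448) overlaps 6 genes, among them Srr (minus strand, 74904027 to 74927533), the serine racemase gene, whose nearest annotated start lies 94 bases inside Smg6. Srr was at 31.3, 31.0 and 37.9 CPM in antisense and 27.0, 27.7 and 23.3 CPM in sense libraries. The antisense libraries were all higher, and the log2 fold change of 0.36 just missed the threshold (edgeR adjusted p = 0.0524). Hic1, a minus-strand transcriptional repressor gene that overlaps the far end of Smg6, was at 2.76, 2.18 and 3.08 CPM in antisense and 0.79, 2.03 and 0.86 CPM in sense libraries (log2 fold change 1.10; edgeR adjusted p = 0.0688). Its counts were 21, 17 and 23 in antisense and 5, 13 and 5 in sense libraries. Without its antisense libraries Hic1 would not have met the filter on low counts. Hic1 passed the threshold without sense replicate 2, the library in which it came nearest to the antisense values. That fit is no separate support. Within Smg6, the ribosomal protein pseudogene Rps12-ps19 had 41 counts in antisense and 9 in sense libraries (log2 fold change 1.85; edgeR adjusted p = 0.0191), a call lost without antisense replicate 1, sense replicate 1 or sense replicate 2. Single counts of Rps12-ps19 were 16.2, 11.2 and 14.5 in antisense and 2.04, 1.28 and 5.53 in sense libraries. All its sense counts lay below the minimum count of the filter, so it was tested because of its antisense counts alone. A gene with such low counts in both groups would not have been tested. As a near copy of another gene, Rps12-ps19 also has an uncertain count. The pseudogene Gm12335 had 30 counts in antisense libraries, most of them in replicate 1, and 0 in sense libraries, at least 8.13-fold higher when the sense group is set to a floor of 3 counts in all.

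Upf1 and Smg1 have neighbours with smaller or sparser signals. Cers1 (plus strand), a ceramide synthase gene whose end meets the end of Upf1, was at 21.4, 17.2 and 20.6 CPM in antisense and 21.2, 21.3 and 20.04 CPM in sense libraries, a log2 fold change of -0.08 (edgeR adjusted p = 0.729). Inside Smg1, the snoRNA gene Gm25683 had 17 counts in antisense and 1 in sense libraries, a scaled ratio of 13.8 (exact 95% interval 2.17 to 578, counting error only), and was too sparse to be tested. The noncoding gene 4930583K01Rik, which overlaps Smg1 on the other strand and starts 270 bases from the Smg1 start listed in the promoter table, had 3 counts in antisense and 1 in sense libraries. Gdf1, which overlaps the end of Upf1, was at 0 in all libraries, and the pseudogene Gm22733 inside Smg6 had 2 counts in antisense and 0 in sense libraries. Gm46032, Gm40454 and Gm51907, which overlap Upf3a, Smg1 and Smg6, had no row to read.

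**Figure D4:**
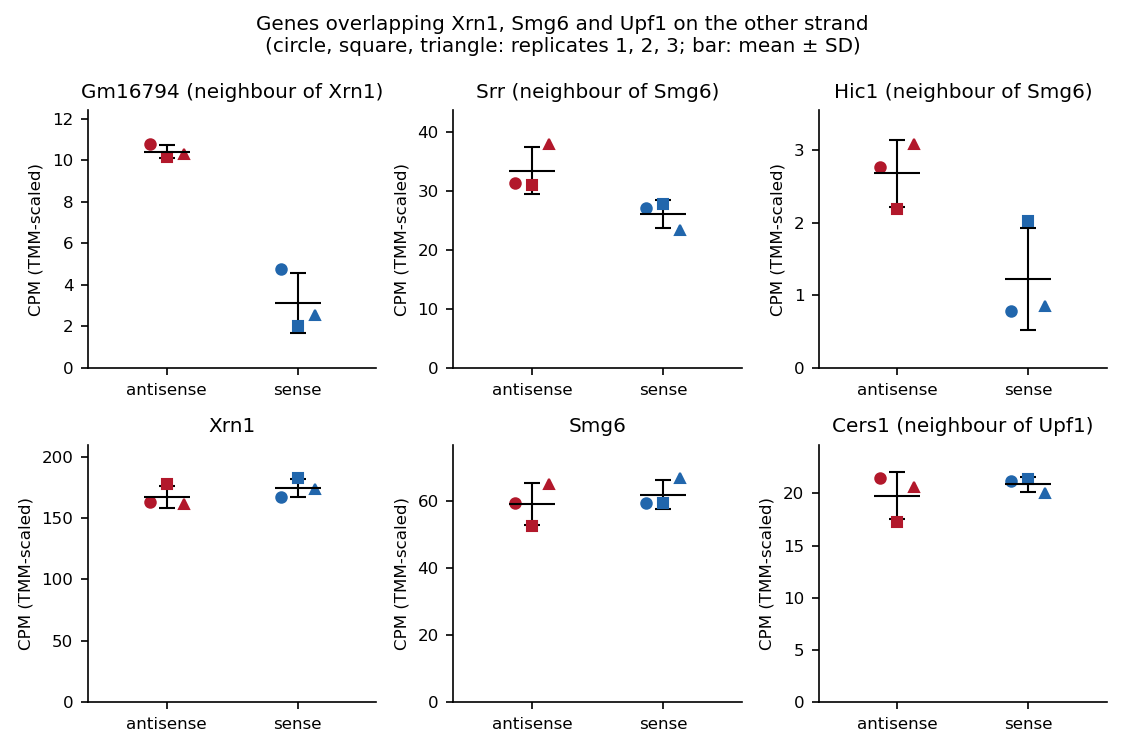
CPM (TMM-scaled, axis from 0) of genes overlapping Xrn1, Smg6 or Upf1 on the other strand, with Xrn1 and Smg6 for comparison, in 3 antisense (red, left) and 3 sense libraries (blue, right), with mean and SD. Gm16794, Srr and Hic1 are higher in every antisense library, while Xrn1, Smg6 and Cers1 overlap between groups.

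The annotated start regions of these genes share a composition rich in CpG. Of the 9 genes, 8 were found in the RefSeq promoter table, which spans 250 bases before to 50 bases after a start, and Dcp2 was not. These 8 windows held 20 to 47 CpG dinucleotides (median 28), against a median of 7 over 27025 windows of the same length, which cover genes of every kind. GGGCGG, on either strand, was found in 7 of the 8 windows, all but that of Smg5, and in 35.9% of all windows. CCAAT, on either strand, was found in the windows of Upf3a, Upf3b and Smg1 and in 37.9% of all windows.

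Factors that work beside these genes, and RNAs known as targets, were read from 6 lists. Of 89 genes in all, 85 other than Gas5 were tested, 4 were higher in antisense, 3 were lower and 78 did not pass on the TMM scale (edgeR quasi-likelihood test), against 9.66% higher and 4.78% lower of protein-coding genes. On library totals 56 of them were higher and 0 lower, against 12804 higher and 62 lower of the 20049 genes tested. That count does not set the lists apart from other genes. The calls on the TMM scale lay among decapping cofactors, release factors and known decay targets. No gene passed among 8 of the exon junction complex, 18 deadenylase subunits and regulators, and 18 of the exosome list, which also holds Xrn2, Hbs1l and Pelo.

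Of 17 decapping cofactors tested, 2 were higher, 2 were lower and 13 did not pass. The log2 fold changes of this list had a median of -0.03, against -0.01 for all genes. Protein-coding genes were higher in 9.66% and lower in 4.78% of cases, and all tested genes in 18.2% and 4.35%. Lsm6 and Lsm2 encode subunits shared by the Sm-like ring that activates decapping and the nuclear ring that binds U6 RNA. Lsm6 was at 21.6, 20.5 and 19.2 CPM in antisense and 31.0, 31.3 and 28.3 CPM in sense libraries. All antisense libraries were lower on the TMM scale, with a value of -0.56 (log2, SE 0.117; edgeR adjusted p = 0.0019), and the call held whichever library was left out; on library totals the value was 0.15. Lsm2 was at 12.9, 10.1 and 11.8 CPM in antisense and 14.1, 21.3 and 17.98 CPM in sense libraries (-0.62, SE 0.177; edgeR adjusted p = 0.019, and 0.06 on library totals), and lost its call without antisense replicate 2, sense replicate 2 or sense replicate 3.

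The higher cofactors were Edc3 and Pnrc2. Edc3, an enhancer of decapping, was at 37.2, 29.8 and 40.2 CPM in antisense and 31.1, 24.2 and 19.7 CPM in sense libraries (log2 fold change 0.51, SE 0.159; edgeR adjusted p = 0.0302). The groups overlapped, since sense replicate 1 was above antisense replicate 2, and the call was lost without antisense replicate 1 or 3 or sense replicate 2 or 3. Pnrc2, which in human cells links UPF1 to the decapping complex, was at 32.6, 36.9 and 34.3 CPM in antisense and 29.4, 20.4 and 27.4 CPM in sense libraries (log2 fold change 0.43, SE 0.135; edgeR adjusted p = 0.0328). Its groups did not overlap, but it kept the call in 1 of 6 fits that left out a library, the one without sense replicate 1.

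Other nonsense-mediated decay and release factors had 1 lower gene, 12 not passing and a median of -0.19, against -0.01 for all genes. The share lower was 4.35% of all tested genes and 4.78% of protein-coding genes, so 1 call does not set this list apart. Gspt2, which encodes a form of the release factor eRF3, was at 9.99, 7.45 and 9.11 CPM in antisense and 14.9, 13.4 and 12.7 CPM in sense libraries. All antisense libraries were lower (log2 fold change -0.63, SE 0.177; edgeR adjusted p = 0.0178; 0.10 on library totals), and the call was lost without antisense replicate 2 or sense replicate 1. Its paralogue Gspt1 (-0.25) and the poly(A)-binding protein gene Pabpc1 (-0.25) did not pass, with edgeR adjusted p of 0.163 and 0.086.

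The remaining 3 lists of machinery had no call, and the 4 genes of smallest p in each are given here. In the exon junction complex list (median -0.19), log2 fold changes were 0.36 for Sap18, -0.63 for the core gene Magoh, -0.24 for Rnps1 and -0.19 for Acin1, and Sap18 passed without sense replicate 2. Among deadenylases and their regulators (median -0.06) they were -0.30 for Tob1, 0.52 for Cnot11, -0.20 for the catalytic subunit gene Cnot7 and -0.16 for the scaffold gene Cnot1. In the exosome list (median -0.08) they were -0.19 for the nuclear subunit gene Exosc10, -0.17 for the nuclear exonuclease gene Xrn2, 0.32 for Exosc5 and 0.30 for Exosc2.

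RNAs known as targets of the pathway, leaving out Gas5, had 2 higher, none lower and 9 not passing, with a median of -0.17. The share higher is that of all tested genes (18.2%), and the share over protein-coding genes was 9.66%. The list holds both coding genes and noncoding snoRNA hosts. Snhg15, a snoRNA host transcript like Gas5, was at 34.3, 33.5 and 36.2 CPM in antisense and 23.4, 24.3 and 22.8 CPM in sense libraries. It was higher in every antisense library, by 0.56 on the log2 scale (SE 0.109; edgeR adjusted p = 0.00112), whichever library was left out. Ddit3, the stress-induced transcription factor gene also called CHOP, was at 8.28, 9.63 and 8.57 CPM in antisense and 4.90, 6.39 and 4.11 CPM in sense libraries (log2 fold change 0.78, SE 0.224; edgeR adjusted p = 0.0199). That call was lost without antisense replicate 2, sense replicate 1 or sense replicate 3. The cell cycle inhibitor gene Cdkn1a (-0.32) and the stress gene Gadd45b (-0.63) did not pass, with edgeR adjusted p of 0.063 and 0.107.

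**Figure D5:**
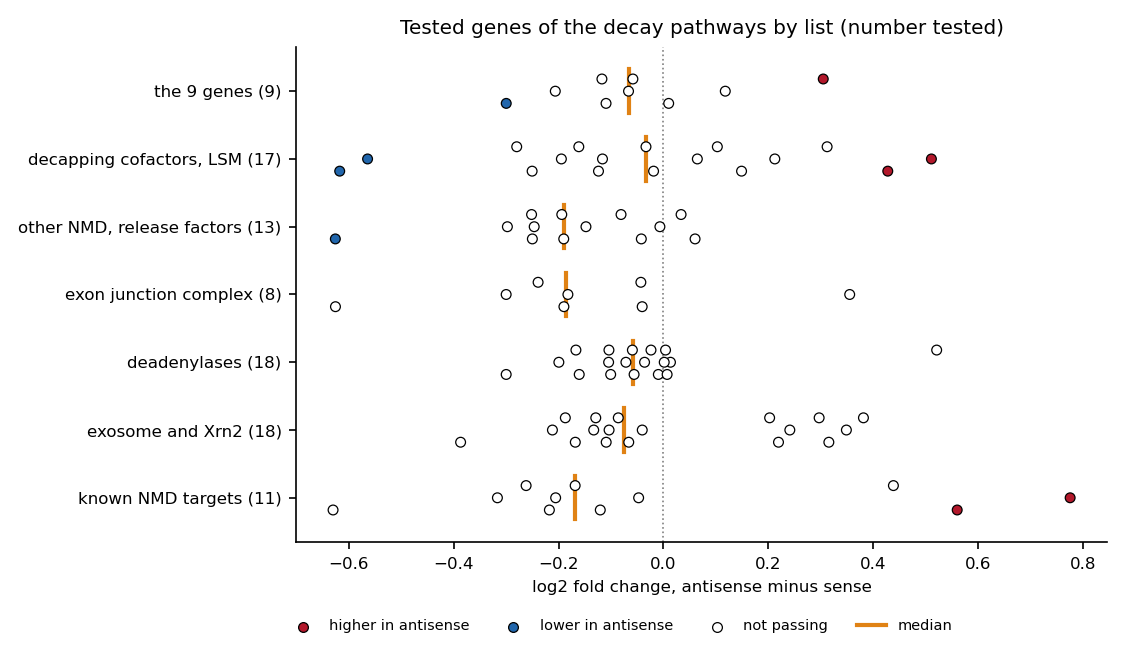
Log2 fold change (antisense minus sense, TMM scale) of every tested gene of the 9-gene set and of each wider list, Gas5 left out, with calls filled (red higher, blue lower) and the list median in orange. Medians lie between -0.19 and -0.03, and the 9 filled points hold Upf2 and Dcp2 from the 9 genes and 7 from the wider lists; the lower ones have positive values on library totals.

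The 9 genes shared no common profile over the 6 libraries: 18 of their 36 pairs had a positive Pearson r, with a range of -0.874 to 0.866. Their average therefore stands for none of them in particular. The genes most like the averaged profile of the 9 included Ehmt1 (Pearson r = 0.997), Gnl2 (0.992), Ccdc162 (0.989) and Mau2 (0.987), ranked among 10992 tested genes with a mean of at least 10 CPM. The points are the same 6 libraries, with their shared depth and scale factors. With so few points, the highest of 10992 correlations run high by selection. On the TMM scale these 4 were below the sense libraries in every antisense library. That direction follows from how they were picked, since 6 of the 9 genes had negative log2 fold changes, and is no separate result. Ccdc162 alone of them passed, at 85.2, 88.4 and 96.7 CPM in antisense and 119, 131 and 151 CPM in sense libraries (log2 fold change -0.57; edgeR adjusted p = 0.000625; 0.13 on library totals). Its p-value belongs to a gene picked from these same values.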

How the data were processed

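Estimated counts per gene symbol were deposited by the authors for 6 total RNA libraries. Salmon, DESeq and GRCm38 come without versions, per the submitters' processing notes. Whether counting used strand is not given in the sources used here. The authors' deposited comparison table holds, per gene, log2 fold changes (sense minus antisense), their standard errors, raw p-values and adjusted p-values. It was read beside the fits only. Both small RNA tables were not used here.

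Counts were rounded and filtered with filterByExpr (minimum count 10). TMM scaling and the quasi-likelihood F test (edgeR 4.0.16, R 4.3.3) compared antisense minus sense with no further term, with Benjamini-Hochberg adjustment over 20049 genes at 0.05. The standard error is the log2 fold change over the square root of F. Libraries held 5775052 to 10424167 counts. The steps were run on simulated counts that left Gas5 out, so that run does not test the scaling at unequal Gas5 shares. Alternatives used DESeq2 1.42.0, limma-voom 3.58.1, other scalings and filters, a replicate block and each library left out. Replicate pairs differed by more than sampling noise (chi-square per degree of freedom 2.81 to 7.09, Gas5 left out).

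The 9 genes, the wider lists, the 5 gene pairs and the rule for naming genes were chosen with earlier results of these data known. The text names the 9 genes, all genes overlapping them, the 4 tested genes of each list with the smallest p and the 5 genes of most similar profile (log2 of CPM + 0.5), except 2 genes not reported here. Counting error is all that intervals of counts and floors cover: without molecular identifiers, reads need not be separate molecules.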

Additional observations from a re-analysis of the deposited data

How the results depend on the processing

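These results rest on 3 libraries a group, and 95% intervals of the 9 genes reached 0.19 to 0.34 to either side on the log2 scale. The part of depth in those widths was not tested. Upf2 passed in 4 and Dcp2 in 6 of 14 alternatives. Upf2 missed the threshold in DESeq2 (0.31; adjusted p = 0.116), limma-voom (0.30; 0.0621), with RLE size factors (0.31; 0.0529), with no filter (0.30; 0.0682) and with a replicate block (0.30; 0.0725), which left 0 of the 9 higher in each. Dcp2 missed it in DESeq2 (-0.30; adjusted p = 0.0699), at a minimum count of 50 (-0.26; 0.0583) and with a replicate block (-0.30; 0.0565), which left 0 lower in each, against 3 of 9 genes at an unadjusted edgeR p under 0.05. The cause was not tested.

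Library totals alone, which count Gas5 in the library size, gave 7 higher and 0 lower of the 9 genes, 56 higher and 0 lower in the wider lists, and 12804 higher and 62 lower of all genes. Log2 fold changes there were 0.60 for Upf1, 0.80 for Upf3a, 0.70 for Upf3b, 0.51 for Smg1, 0.61 for Smg5, 0.64 for Smg6, 0.40 for Dcp2 and 0.64 for Xrn1. Of these, Upf3a and Upf3b kept their sign and the other 6 turned. Signs also turned for Lsm2 (0.059), Lsm6 (0.15), Gspt1 (0.47), Gspt2 (0.10), Pabpc1 (0.47), Magoh (0.13), Rnps1 (0.46), Acin1 (0.52), Cnot1 (0.55), Cnot7 (0.52), Tob1 (0.40), Exosc10 (0.53), Xrn2 (0.55), Gadd45b (0.066), Cdkn1a (0.40), Ehmt1 (0.51), Gnl2 (0.52), Ccdc162 (0.13), Mau2 (0.54) and Cers1 (0.64). A minimum count of 50 gave 1795 higher and 402 lower genes, with fewer genes tested.

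With 1 library left out, higher and lower calls among the 9 genes were 0 to 1 each, in the wider lists 1 to 3 and 2 to 3, and among all genes 3392 to 3987 and 492 to 1100. Log2 fold changes ran from 0.25 to 0.36 for Upf2, -0.34 to -0.27 for Dcp2, -0.026 to 0.29 for Upf3a, -0.16 to 0.12 for Upf3b and -0.14 to 0.0034 for Smg6. For Cers1 they ran from -0.15 to 0.0048, the highest without antisense replicate 2. Differences of log2 ratios ran from -0.12 to 0.23 for Upf3a over Upf3b and from -0.096 to 0.016 for Smg5 over Smg6.

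Same-numbered libraries shared no deviation (correlations 0.0512, -0.0585 and -0.00933 for numbers 1, 2 and 3), so the numbers were not taken to pair them. The replicate block gave 3428 higher and 695 lower genes.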
